A study of Mus musculus with 12 samples.

Results

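The 9 genes described here encode proteins that coat lipid droplets or that fill and empty them: the perilipins Plin2, Plin3, Plin4 and Plin5, the lipases Pnpla2 and Mgll, the lipase co-activator Abhd5, and the acyltransferases Dgat1 and Dgat2. They are listed by name, with no threshold on a measured value, although the list was drawn up with earlier results of these data known, and were found among 55335 gene identifiers by matching Ensembl numbers to a GRCm38 annotation. All 9 passed the filter on low counts, which kept 16932 genes. The study measured RNA of cardiomyocytes from male mice that were 7 to 8 weeks old when the diets began, with 3 libraries in each of 4 groups by the labels. WT_CD was C57BL/6J on standard chow and WT_HFD was C57BL/6J on a Western-type high fat diet with 0.21% cholesterol. ApoeKO_CD and ApoeKO_HFD were ApoE KO mice (B6.129P2-Apoe tm1Unc/J) on the same 2 diets. All groups were kept on their diet for 7 weeks. The knockout is carried by the whole animal and not by cardiomyocytes alone, and the labels name no littermate controls. The labels do not say whether the replicates were separate mice, so the p-values speak only to the spread among libraries, which may be technical.

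A lipid droplet is a core of triglyceride and sterol ester under a single layer of phospholipid. Perilipins sit on that surface and set the access of lipases to the core, and the heart, which burns mostly fatty acids, keeps a small and fast-turning droplet pool. Dgat1 and Dgat2 add the last acyl chain of triglyceride. Pnpla2 (ATGL) removes the first acyl chain with Abhd5 (CGI-58) as its co-activator, hormone-sensitive lipase (Lipe) removes the next, and Mgll releases the last fatty acid from monoglyceride.

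Some facts about the libraries bear on what follows. The library labelled WT_HFD replicate 3 had 1347110 counts, and its file's header names another library. Strand was checked on protein-coding genes that have a non-coding gene within them on the opposite strand. Of the counts of these pairs, 68.2% were on the non-coding strand in that library, against 0.444 to 0.711% in the other 11. WT_HFD replicate 3 held 6 to 100 counts for each of the 9 genes and was left out. The remaining 11 libraries had 22130323 to 46424614 counts, of which 51.5 to 71.3% were mitochondrial. The knocked-out gene itself, Apoe, did not match the labels of the chow groups: it stood at 2.91, 2.12 and 3.61 TMM-scaled CPM (counts normalised to library size) in the libraries labelled WT_CD and at 25.3, 23.9 and 6.93 CPM in those labelled ApoeKO_CD. On high fat diet it stood at 18.9 and 8.44 CPM in WT_HFD and 1.94, 3.02 and 3.16 CPM in ApoeKO_HFD. Counts were summed over the whole gene and do not show which exons the reads came from. Every direction below that involves a chow group is therefore a direction between libraries labelled so. WT_CD replicate 2 differed from replicates 1 and 3 (chi-square per degree of freedom 45.0 and 72.3) more than those 2 differed from each other (28.0). Other groups held larger values, up to 189.6 between ApoeKO_CD replicates 1 and 3. Without WT_CD replicate 2 the number of genes called between ApoeKO_CD and WT_CD went from 86 to 1801. Results against WT_CD are therefore given with and without that library where a call depends on it.

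Defining markers of heart muscle were abundant in every library: 8 cardiomyocyte markers summed to between 83338 and 96745 CPM. Most markers of adipocytes, another cell type rich in perilipin and lipase transcripts, were near 0. Lipe ranged from 6.53 to 16.1 CPM and Fabp4 from 11.6 to 40.1 CPM, and both are also expressed by other cells. Each of the other 8 adipocyte markers stayed at or under 0.746 CPM in every library, and Adipoq had no count in 2 libraries. Atrial content differed between libraries. The sums of 7 atrial cardiomyocyte markers were 86.5 to 147 CPM in WT_CD and 116 to 140 in ApoeKO_CD. They were 209 and 13.6 CPM in WT_HFD and 23.9 to 95.9 in ApoeKO_HFD. The part of atrial RNA in the differences below was not tested. These are bulk samples, in which fewer cells of a type and less RNA per cell cannot be told apart.

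In GRCm38, Plin2 lies on chromosome 4 (86648386 to 86670060, minus strand), Mgll on chromosome 6 (88724412 to 88828360, plus), Pnpla2 and Dgat2 far apart on chromosome 7 (141455198 to 141460743, plus, and 99153658 to 99182719, minus), Abhd5 on chromosome 9 (122351608 to 122381524, plus), Dgat1 on chromosome 15 (76502015 to 76511953, minus) and Plin3 on chromosome 17 (56277476 to 56292873, minus). Apoe is also on chromosome 7, 79.5 Mb from Dgat2, the nearer of the pair. Mgll and Abhd5 overlap antisense gene models and the end of Plin4 overlaps a gene on the opposite strand, but counting kept the strands apart in the 11 libraries, as the shares above show. Mgll also holds provisional gene models on its own strand, and how reads falling in both were counted is not given in the sources used here.

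Sequence upstream of 7 of the 9 genes was in the RefSeq promoter table (GRCm38.p6). Mgll and Plin5 each had 2 starts listed there, and only the farther upstream was used. Windows of 270 bases, from 250 before the RefSeq start to 20 after it, were searched on both strands for 3 short motifs: CACGTG (the E-box), AGGTCA (the nuclear receptor half-site) and GGGCGG (the GC box). The 3 windows below belong to the genes with the smallest p-values of each direction in the chow comparison, Mgll and Plin2 (lower under the knockout label) and Abhd5 (higher). Capitals mark an E-box or a half-site, and each line runs 5′ to 3′ on the gene's own strand.
Mgll, chr6:88724162-88724431, plus strand: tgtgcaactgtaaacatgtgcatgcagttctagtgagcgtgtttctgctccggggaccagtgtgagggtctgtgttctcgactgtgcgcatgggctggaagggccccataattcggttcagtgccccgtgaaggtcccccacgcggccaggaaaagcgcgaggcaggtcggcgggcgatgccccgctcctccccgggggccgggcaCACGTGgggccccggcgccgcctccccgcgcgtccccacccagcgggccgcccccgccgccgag
Plin2, chr4:86670040-86670309, minus strand: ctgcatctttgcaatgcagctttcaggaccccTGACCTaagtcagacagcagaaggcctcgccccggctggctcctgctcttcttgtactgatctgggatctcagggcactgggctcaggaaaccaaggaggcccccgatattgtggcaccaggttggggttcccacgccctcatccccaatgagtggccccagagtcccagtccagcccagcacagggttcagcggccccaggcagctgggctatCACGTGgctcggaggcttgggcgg
Abhd5, chr9:122351366-122351635, plus strand: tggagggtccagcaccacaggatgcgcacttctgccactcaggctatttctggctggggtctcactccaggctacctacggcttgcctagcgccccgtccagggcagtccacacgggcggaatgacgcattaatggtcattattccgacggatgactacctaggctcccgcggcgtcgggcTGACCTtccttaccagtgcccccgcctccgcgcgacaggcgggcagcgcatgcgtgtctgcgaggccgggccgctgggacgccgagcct
The E-box was in 2 of the 7 windows, 44 bases before the start in Mgll and across the start, from 4 bases before it, in Plin2. Of all 32540 windows of that length, 6.58% held it. The half-site was in 3 of the 7, at 218 bases before the start in Plin2, 170 in Plin5 and 69 in Abhd5, against 15% of all windows. A GC box was in 6 of the 7, against 34.4%. A match is a run of letters, not a bound site.

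The levels of the 9 genes spanned a wide range. Genes were set side by side per kb of merged exons, the union of all annotated exons of a gene. Which transcripts were expressed was not measured, so the order and the ratios between genes depend on that length. On this scale Pnpla2 averaged 37.2 ± 5.41 CPM per kb and Dgat2 34.9 ± 3.17 (SD, n = 11 libraries, all groups). Plin5, the perilipin typical of oxidative tissue, followed at 26.7 ± 4.49 CPM per kb. Plin4, which coats droplets through a long repeat of amphipathic helices, stood at 20.3 ± 2.77, and Plin3, a coat protein that also exists free in the cytosol, at 12.3 ± 2.12. The lower tier held Plin2, the coat found in most tissues, at 3.97 ± 0.690 CPM per kb, Mgll at 3.10 ± 0.864, Abhd5 at 2.16 ± 0.293 and Dgat1 at 1.69 ± 0.218.

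Some neighbours in this order were not separated by their spread. Pnpla2 was above Dgat2 in 7 of 11 libraries, Dgat2 above Plin5 in 9, Plin2 above Mgll in 10, Mgll above Abhd5 in 8 and Abhd5 above Dgat1 in 9. Plin5 was above Plin4, Plin4 above Plin3, and Plin3 above Plin2 in all 11 libraries. Partners in one step differed far more than that. Per kb, Dgat2 was 15.8 to 23.5 times as high as Dgat1, and Pnpla2 was 13.7 to 24.7 times as high as its co-activator Abhd5. Plin5 was 5.44 to 8.10 times as high as Plin2.

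**Figure D1:**
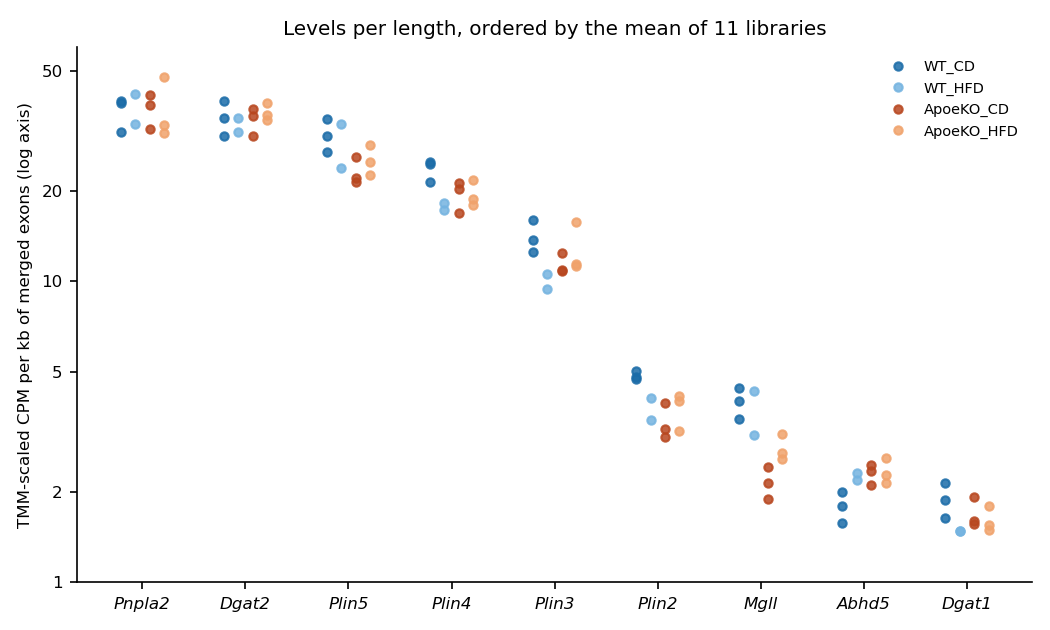
Level of each of the 9 genes per kb of merged exons (TMM-scaled CPM per kb, log axis) in the 11 libraries, ordered by the mean and coloured by labelled group. Pnpla2 and Dgat2 are the highest, at 37.2 and 34.9 CPM per kb on average, and Dgat1 is the lowest at 1.69.

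Among the coats, Plin2 was the gene whose WT_CD libraries stood clear of all others. It measured 16.6, 17.7 and 16.9 CPM in WT_CD, 12.2 and 14.4 in WT_HFD, 10.7, 11.4 and 13.8 in ApoeKO_CD, and 14.1, 11.2 and 14.6 in ApoeKO_HFD. The lowest WT_CD library was above the highest of the other 8. Here and below, the share of all tested genes whose libraries separate in such a way is not given. In the 3 comparisons against WT_CD, 12.9 to 15.9% of all tested genes had an unadjusted edgeR p under 0.05. Its log2 difference from WT_CD was −0.51 ± 0.15 (SE) in ApoeKO_CD (edgeR adjusted p = 0.115), −0.36 ± 0.15 in ApoeKO_HFD (edgeR adjusted p = 0.278) and −0.36 ± 0.16 in WT_HFD (edgeR adjusted p = 0.366), so none passed the threshold of 0.05. Under DESeq2 the first of these reached an adjusted p of 0.0381, and without WT_CD replicate 2 edgeR gave −0.49 with an adjusted p of 0.0487. Both of those fits also called more of all tested genes than the main fit did. The 3 differences share the WT_CD libraries.

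Plin3 was lowest in the WT_HFD libraries, at 35.8 and 39.9 CPM. The WT_CD libraries held 60.6, 47.5 and 52.0 CPM, those of ApoeKO_CD 41.2, 40.9 and 47.0, and those of ApoeKO_HFD 59.7, 43.3 and 42.6. WT_HFD did not overlap any other group, and ApoeKO_HFD was spread over the range of the rest by its replicate 1. The log2 difference of WT_HFD from WT_CD was −0.50 ± 0.17 (edgeR adjusted p = 0.247), which became −0.57 with an adjusted p of 0.0458 without WT_CD replicate 2. The number of all genes called in this comparison also moved widely with a library left out, and the share called in that fit is not given. The difference between the diet effects under the 2 genotype labels (the interaction) was 0.67 ± 0.22 on the log2 scale, the largest among the 9 genes, with an edgeR adjusted p of 0.439.

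Plin4 and Plin5 lie next to each other on chromosome 17 on the minus strand (Plin4 at 56100591 to 56109803, Plin5 at 56111601 to 56117596, GRCm38), with 1797 bases between them, and the stretch from Plin4 to the far end of Plin3 covers 192 kb. Plin4 measured 142, 123 and 144 CPM in WT_CD, 99.99 and 105 in WT_HFD, 97.2, 117 and 122 in ApoeKO_CD, and 125, 109 and 104 in ApoeKO_HFD. The WT_CD libraries were the upper end of the range, although ApoeKO_HFD replicate 1 was above the lowest of them. Its log2 difference from WT_CD was −0.41 ± 0.15 in WT_HFD (edgeR adjusted p = 0.276), and −0.28 ± 0.13 in both ApoeKO_CD and ApoeKO_HFD (edgeR adjusted p = 0.305 and 0.344).

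Plin5, which tethers droplets to mitochondria, measured 56.2, 63.6 and 72.1 CPM in WT_CD, 49.5 and 69.4 in WT_HFD, 44.8, 46.0 and 54.2 in ApoeKO_CD, and 59.2, 51.8 and 47.1 in ApoeKO_HFD. ApoeKO_CD lay below WT_CD without overlap, by −0.40 ± 0.15 on the log2 scale (edgeR adjusted p = 0.203). The 2 WT_HFD libraries spanned nearly the whole range. Across the 11 libraries Plin3 and Plin4 had the highest correlation of any pair of the 9 genes (Pearson r of log2 CPM 0.84), and the adjacent Plin4 and Plin5 had r = 0.57. These are descriptions over libraries that share groups and depth.

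**Figure D2:**
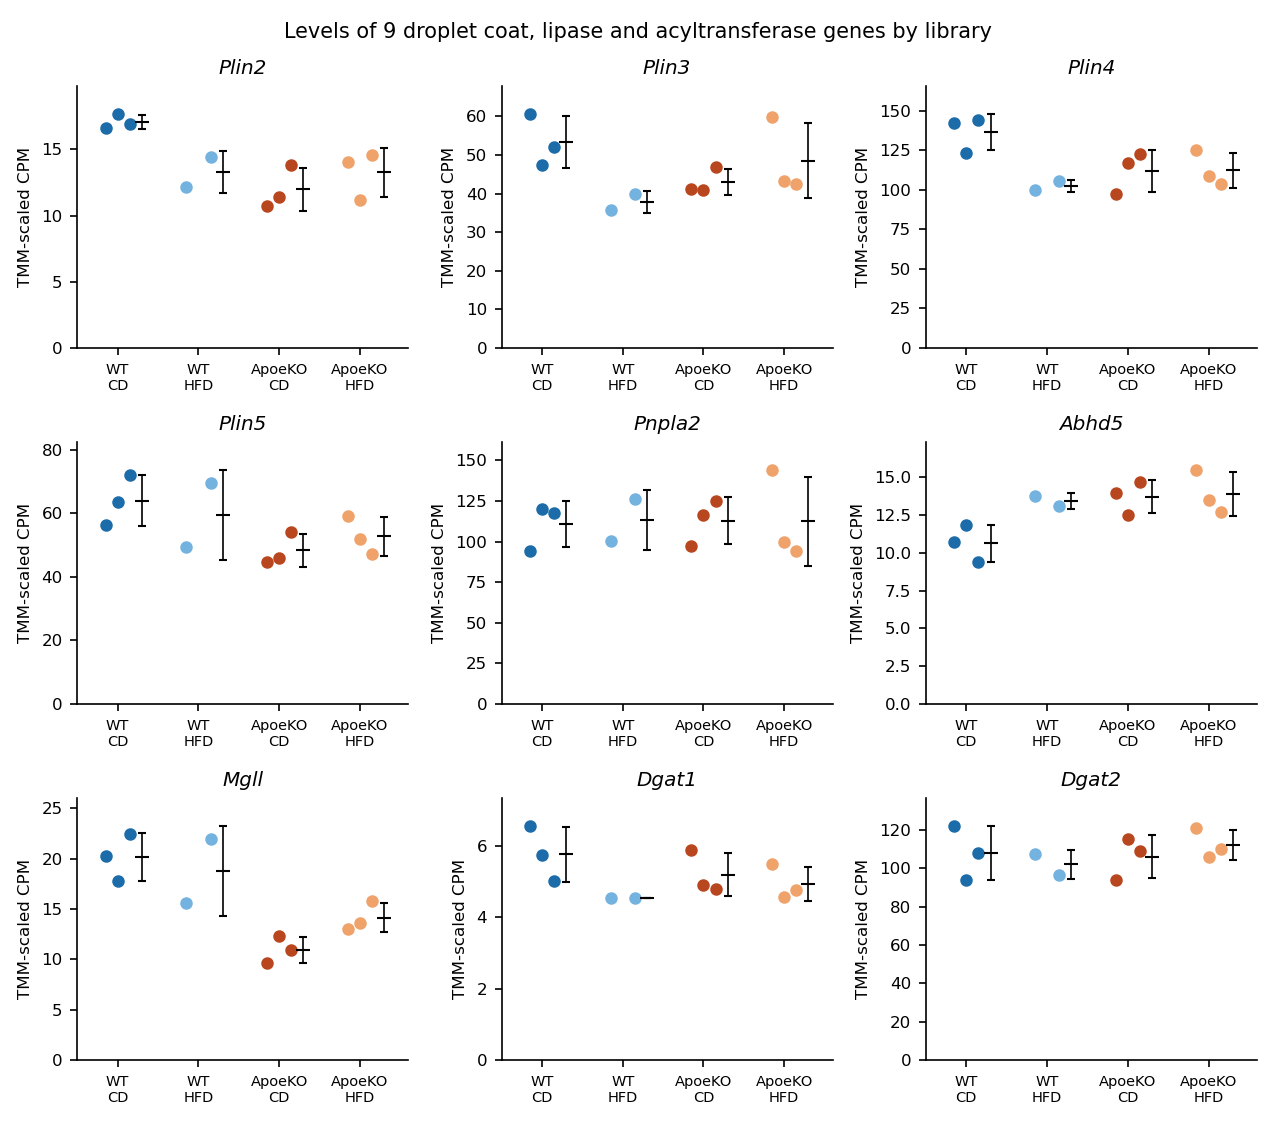
TMM-scaled CPM of each gene (vertical axes from 0) in the libraries of the 4 labelled groups, with the group mean and SD in black (n = 3, or 2 for WT_HFD). Plin2 is highest and Abhd5 lowest in the 3 WT_CD libraries, Mgll is lowest in ApoeKO_CD (9.62 to 12.3 CPM), and Pnpla2 and Dgat2 have similar means in all groups.

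Neither Pnpla2, the triglyceride lipase, nor Abhd5, its co-activator, passed the test in any comparison. Pnpla2 measured 94.3, 120 and 118 CPM in WT_CD, 100.4 and 127 in WT_HFD, 97.1, 117 and 125 in ApoeKO_CD, and 144, 99.7 and 93.9 in ApoeKO_HFD. The group means were 111 to 113 CPM, and ApoeKO_HFD held both the highest and the lowest library. The log2 difference of ApoeKO_CD from WT_CD was 0.03 (95% interval −0.32 to 0.38), and that of ApoeKO_HFD from WT_CD was also 0.03 (−0.33 to 0.38). Differences of up to about the size of these bounds, in either direction, lie within the intervals. The bounds are not limits of detection, and larger differences of other genes here were also not called.

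Abhd5 was the gene that stood lower in WT_CD than elsewhere. It measured 10.7, 11.9 and 9.40 CPM in WT_CD, 13.8 and 13.1 in WT_HFD, 13.95, 12.5 and 14.7 in ApoeKO_CD, and 15.5, 13.5 and 12.7 in ApoeKO_HFD. The highest WT_CD library was below the lowest of the other 8, and as for Plin2 the share of all tested genes so separated is not given. The log2 difference from WT_CD was 0.38 ± 0.14 in ApoeKO_HFD (edgeR adjusted p = 0.248), 0.37 ± 0.14 in ApoeKO_CD (edgeR adjusted p = 0.213) and 0.33 ± 0.15 in WT_HFD (edgeR adjusted p = 0.372). Without WT_CD replicate 2 the ApoeKO_CD difference was 0.45 with an adjusted p of 0.0508, still above the threshold. As a share of Pnpla2 per kb, Abhd5 was 4.04 to 5.75% in WT_CD and 5.45 to 7.28% in ApoeKO_CD.

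Mgll, the monoglyceride lipase, was the only gene of the 9 that edgeR called in the main fit, between ApoeKO_CD and WT_CD. Its level was 20.3, 17.7 and 22.4 CPM in the libraries labelled WT_CD and 9.62, 12.3 and 10.9 CPM in those labelled ApoeKO_CD. No library of one group reached the other. The means were 20.2 ± 2.36 and 10.9 ± 1.33 CPM (SD, n = 3 each), a 1.85-fold lower level under the knockout label, with a log2 difference of −0.89 ± 0.16 (95% interval −1.21 to −0.56, edgeR adjusted p = 0.0107). The call held in 8 of the 11 fits that left out 1 library. It was lost without WT_CD replicate 3 (−0.81, adjusted p = 0.0570), without ApoeKO_CD replicate 1 (−0.81, adjusted p = 0.0800) and without ApoeKO_CD replicate 3 (−0.88, adjusted p = 0.0847), and it was kept without WT_CD replicate 2 (−0.97, adjusted p = 0.00163).

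On high fat diet Mgll measured 15.6 and 21.9 CPM in WT_HFD and 13.1, 13.6 and 15.8 in ApoeKO_HFD. These groups overlapped, and the log2 difference between them was −0.41 ± 0.17 (edgeR adjusted p = 0.99985). ApoeKO_HFD lay above ApoeKO_CD without overlap, by 0.38 ± 0.16 (edgeR adjusted p = 0.99974), and below WT_CD without overlap, by −0.51 ± 0.15 (edgeR adjusted p = 0.186). Without WT_CD replicate 2 the last difference was −0.59 with an adjusted p of 0.0291. The number of all genes called in that comparison also moved widely with a library left out, and the share called in that fit is not given. Whether the genotype-label difference depended on diet was tested by the interaction, which was 0.48 ± 0.23 on the log2 scale (edgeR adjusted p = 0.624). Per kb, Mgll was 8.81 to 12.8% of Pnpla2 in WT_CD and 5.18 to 6.27% in ApoeKO_CD.

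Of the marker lists, that of endothelium is given beside Mgll because its values lay in the same direction between ApoeKO_CD and WT_CD. All 10 of its genes had a log2 difference below 0 between ApoeKO_CD and WT_CD, with a median of −0.64, and 1 of them passed the test, Gpihbp1, the capillary anchor of lipoprotein lipase (−1.53 ± 0.28, edgeR adjusted p = 0.0150). Their sum was 149, 68.4 and 167 CPM in WT_CD, 110 and 170.3 in WT_HFD, 88.7, 73.8 and 68.4 in ApoeKO_CD, and 80.8, 98.9 and 117 in ApoeKO_HFD. The lowest sum in WT_CD, 68.4 CPM, was that of replicate 2, where Mgll was 17.7 CPM. The sums of the chow groups overlapped. Of the 10 adipocyte markers 3 could be tested, and between ApoeKO_CD and WT_CD 0 were called and all 3 were below 0. These were Adig at −1.85 ± 0.77, Fabp4 at −1.10 ± 0.37 and Lipe at −0.39 ± 0.21 (edgeR adjusted p = 0.248, 0.202 and 0.368). Adig was near 0, with means of 0.386 CPM in WT_CD and 0.107 CPM in ApoeKO_CD. Fabp4 stands in both the adipocyte and the endothelial list, and endothelium also expresses it. The 10 adipocyte markers summed to 26.3 to 57.2 CPM in WT_CD, 34.5 to 51.4 in WT_HFD, 21.1 to 26.7 in ApoeKO_CD and 26.5 to 33.5 in ApoeKO_HFD. Other lists went the other way between ApoeKO_CD and WT_CD. Their median log2 differences were 0.77 for macrophage, 0.15 for fibroblast and 0.13 for smooth muscle and pericyte markers. The medians of cardiomyocyte and atrial cardiomyocyte markers were −0.17 and −0.40. The part of endothelial or adipocyte RNA in the Mgll difference was not tested.

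**Figure D3:**
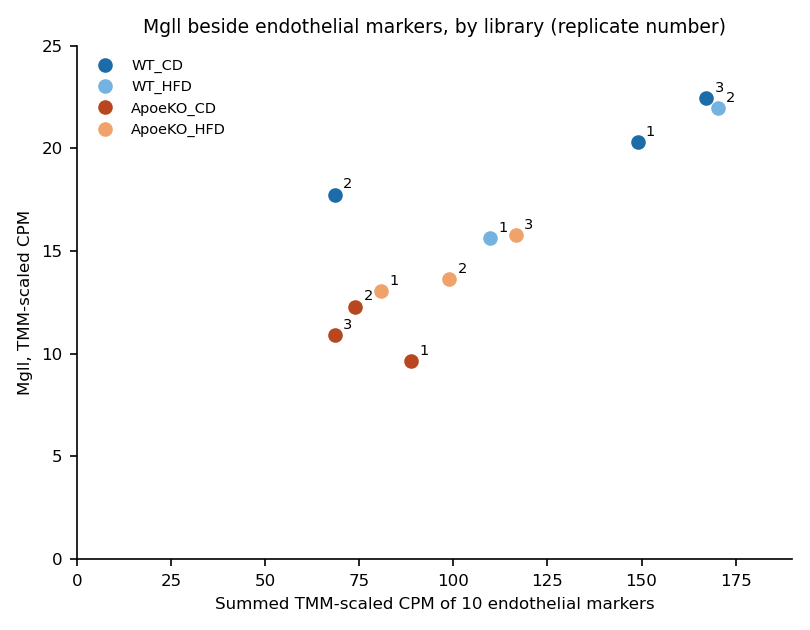
Mgll (TMM-scaled CPM, vertical axis) against the summed TMM-scaled CPM of 10 endothelial markers (horizontal axis) in 11 libraries, coloured by labelled group and numbered by replicate. Marker sums run from 68.4 to 170.3 CPM and Mgll from 9.62 to 22.4 CPM, and WT_CD replicate 2 lies at 68.4 and 17.7 CPM.

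Neither acyltransferase passed the test in any comparison. Dgat2 measured 122, 93.8 and 108 CPM in WT_CD, 107 and 96.7 in WT_HFD, 93.6, 115 and 109 in ApoeKO_CD, and 121, 106 and 110 in ApoeKO_HFD. All groups overlapped, and its coefficient of variation over the 11 libraries, 9.08%, was the lowest of the 9 genes, against 27.9% for Mgll. Its log2 difference of ApoeKO_HFD from WT_CD was 0.06 (95% interval −0.22 to 0.34) and that of ApoeKO_CD from WT_CD −0.02 (−0.31 to 0.26). Dgat1 had the fewest counts of the 9 genes, with 122 to 229 in each library. It stood at 6.55, 5.73 and 5.0 CPM in WT_CD, 4.52 in both WT_HFD libraries, 5.88, 4.89 and 4.78 in ApoeKO_CD and 5.48, 4.55 and 4.76 in ApoeKO_HFD. Its log2 difference of WT_HFD from WT_CD was −0.35 ± 0.19 (edgeR adjusted p = 0.455).

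Counting over the 9 genes, 1 was called between ApoeKO_CD and WT_CD, where 0.508% of all tested genes were called. At an unadjusted p under 0.05 there were 6 of 9 in that comparison, 5 lower and 1 higher, against 15.9% of all genes, and the median log2 difference was −0.28, beside −0.01 for all genes. Between ApoeKO_HFD and WT_CD edgeR called 0 of 9 (0.154% of all genes), and 4 had an unadjusted p under 0.05 (14.2% of all genes), with a median of −0.22. Between WT_HFD and WT_CD it called 0 of 9 (0.207% of all genes) and 4 had an unadjusted p under 0.05 (12.9%), with a median of −0.11. These 3 comparisons share the WT_CD libraries and are not independent of one another.

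Between ApoeKO_HFD and ApoeKO_CD, the diet effect under the knockout label, edgeR called 0 of 9 (0.0709% of all genes), and 1 gene, Mgll, had an unadjusted p under 0.05 (1.53% of all genes), with a median of 0.08. Between ApoeKO_HFD and WT_HFD it called 0 of 9 (0.0472% of all genes), and Plin3 and Mgll had an unadjusted p under 0.05 (2.83%), with a median of 0.05. Neither of these pairs includes WT_CD. The interaction, which does draw on the WT_CD libraries, called 0 of 9 (0.219% of all genes), and Plin2 and Plin3 had an unadjusted p under 0.05 (8.2%), with a median of 0.28. DESeq2 and voom also called 0 of 9 in the 5 comparisons in which edgeR called 0.

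**Figure D4:**
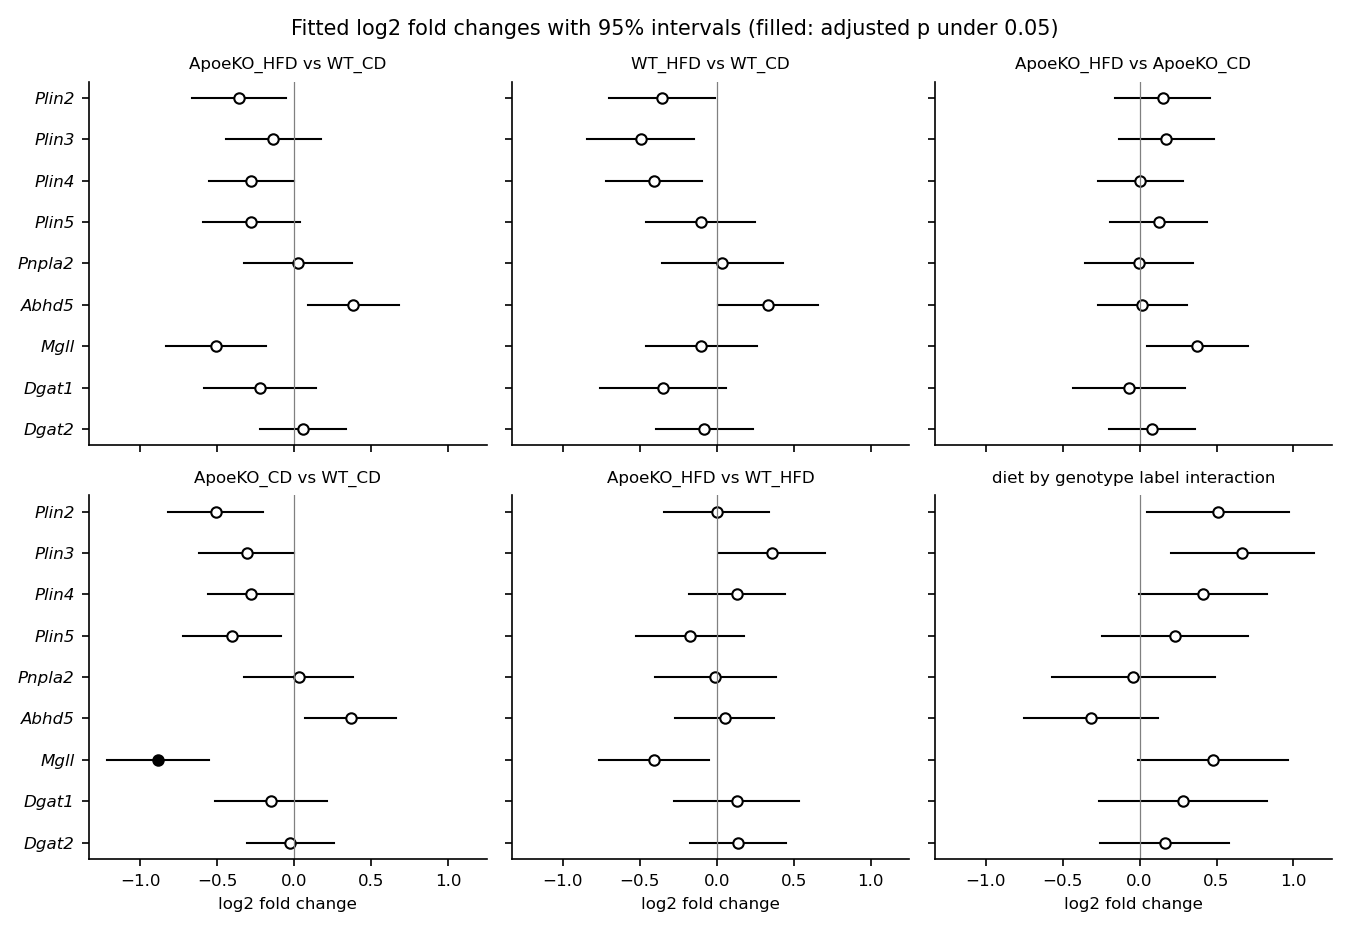
Fitted log2 fold change of each gene (horizontal axes) with its 95% interval in the 6 comparisons, filled where the adjusted p was under 0.05. The only filled point is Mgll between ApoeKO_CD and WT_CD at −0.89.

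The wider droplet pathway, 42 genes in 4 lists of which 36 were tested, had 0 genes called by edgeR in any of the 6 comparisons. Between ApoeKO_CD and WT_CD, 3 were higher and 2 lower at an unadjusted p under 0.05, a share of the 36 near the 15.9% of all genes, and the median of the 36 was −0.02. The smallest p belonged to Pnpla8, a phospholipase of mitochondria and peroxisomes (0.52 ± 0.16, edgeR adjusted p = 0.144). Next among the other lipolysis genes was G0s2, the inhibitor of Pnpla2 (−0.39 ± 0.16, edgeR adjusted p = 0.252). Pnpla8 also had the smallest p of its list between WT_HFD and WT_CD (0.51 ± 0.18, edgeR adjusted p = 0.257), where Abhd6, another monoglyceride hydrolase, differed by 0.71 ± 0.28 (edgeR adjusted p = 0.296).

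Between ApoeKO_HFD and WT_CD, 3 of the 36 were higher and 4 lower at an unadjusted p under 0.05, where 14.2% of all genes were past it. The genes named here are among those with the smallest p of their lists, given as values. Spg20 (spartin) of the droplet formation list differed by −0.45 ± 0.14 (edgeR adjusted p = 0.188). Of the other lipolysis genes Pnpla8 had the smallest p and was higher (0.40 ± 0.16, edgeR adjusted p = 0.273). Next was Hsd17b11, a droplet-bound dehydrogenase, which was lower (−0.80 ± 0.31, edgeR adjusted p = 0.278). Nceh1, a sterol ester hydrolase, differed by 0.38 ± 0.16 (edgeR adjusted p = 0.290). Between ApoeKO_HFD and WT_HFD, 3 were lower and 0 higher (2.83% of all genes in either direction): G0s2 (−0.45 ± 0.18), Lipe (−0.50 ± 0.23) and Agpat3, an acyltransferase of phosphatidic acid synthesis (−0.33 ± 0.14), each with an edgeR adjusted p of 0.99985. Between ApoeKO_HFD and ApoeKO_CD none of the 36 had an unadjusted p under 0.05. In the interaction 3 were lower, a share near the 8.2% of all genes, Pnpla8 having the smallest p (−0.63 ± 0.24, edgeR adjusted p = 0.525). The 13 tested genes of triglyceride synthesis before the DGAT step held 1 of all these, Agpat3.

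Several perilipin and lipase genes are known to respond to the fatty acid receptor PPAR-alpha, and 12 other such genes were set beside them. Between ApoeKO_CD and WT_CD 10 of the 12 were below 0, with a median of −0.40. Their smallest p belonged to Cpt1b, the muscle carnitine palmitoyltransferase (−1.30 ± 0.29, edgeR adjusted p = 0.0564), and 0 of the 12 were called, with 5 at an unadjusted p under 0.05 (15.9% of all genes).

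Genes whose pattern was most like each of the 9 were looked up among 4758 protein-coding genes by the Pearson correlation of log2 CPM over the 11 libraries. Mgll was most like Epas1 (r = 0.89), Srebf1 (0.88) and Impa2 (0.87). Plin2 was most like Adssl1 (0.91), Fam213b (0.90) and Isoc2a (0.89), and Plin5 most like Fkbp1a (0.94), Ndufb10 (0.91) and Apbb1 (0.89). Plin3 was most like Tgm2 (0.94) and Des (0.93), and Plin4 most like Hgs (0.94), Nol3 (0.92) and Tmed9 (0.92). Pnpla2 was most like Mgst3 (0.98), Bckdha (0.95) and Gatb (0.94), and Abhd5 most like Polr2c (0.95), Strn3 (0.95) and Ube3c (0.95). Dgat1 was most like Bcl6 (0.85), Hsp90ab1 (0.84) and Ttc1 (0.83), and Dgat2 most like Slc39a14 (0.90), Trim7 (0.80) and Ncln (0.77). Among the 9 themselves, the lowest correlation was that of Abhd5 with Mgll (r = −0.72), and Mgll correlated with Plin5 at 0.74 and with Plin2 at 0.74.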

How the data were processed

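RNA was isolated with a Maxwell RSC kit and libraries were made with a stranded SMART-Seq kit, per the labels. Trimmomatic 0.39, STAR 2.7a, HTSeq 0.13.5 and the builds GRCm38 and mm10 are named in the submitters' processing notes. The deposited files hold whole-number counts per gene, as the authors made them, with no normalization. Symbols, positions and exon lengths came from a GRCm38 annotation, which matched 55154 of 55335 identifiers and left 181 unnamed.

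Libraries were grouped by the labels. The test across genes was that of edgeR 4.0.16 (R 4.3.3), with TMM factors, filterByExpr by group, 1 mean per group over 11 libraries, and the robust quasi-likelihood test with 7 residual degrees of freedom. Two-sided p-values were adjusted by Benjamini-Hochberg over 16932 genes within each of 6 comparisons, with a threshold of 0.05. Replicates of 1 group differed by more than sampling noise (chi-square per degree of freedom 24.5 to 189.6). Intervals are 95% intervals of the fit. WT_HFD entered with 2 libraries. The script was tested on simulated data.

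The 9 genes and all lists were chosen with earlier results of these data known, and the motifs and the promoter window were chosen after the values were seen. Named were the 9 genes, every called gene of the other lists, genes with the smallest p of each droplet list, and the 3 genes most correlated with each of the 9 (mean log2 CPM at least 3, prior count 2). Some results under this rule are not reported here. Cpt1b, and the marker Adipoq, were chosen after their values were seen. Marker lists covered cardiomyocytes, adipocytes, macrophages, endothelium, fibroblasts, smooth muscle with pericytes, and atrial cardiomyocytes. Their summed CPM over the 11 libraries ran from 5.59 to 32.8 for macrophages, 8.95 to 20.7 for fibroblasts, 174 to 273.7 for smooth muscle with pericytes, and 13.6 to 209 for atrial cardiomyocytes. Alternatives were 20: DESeq2 1.42.0, voom of limma 3.58.1 with sample weights, other scalings, filters and designs, all 12 libraries, and each library left out in turn.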

Additional observations from a re-analysis of the deposited data

Results flagged for a closer look

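The library labelled WT_HFD replicate 3 was outside every reported comparison. In its file 68.2% of the counts of opposite-strand gene pairs were on the non-coding strand, against at most 0.711% in the other 11 libraries, and its header names another library.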

How the results depend on the processing

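The drop of Mgll under the knockout label on chow kept its direction in all 20 alternatives. It passed the threshold in 8 of the 9 that left out no single library, with log2 differences of −0.92 to −0.81. The exception was the fit of all 12 libraries (−0.89, adjusted p = 0.928). With 1 library left out, the difference ran from −0.97 to −0.81 and the adjusted p from 0.00163 to 0.0847. Numbers shared between groups did not pair the libraries: 1 of 15 same-numbered pairs had deviations correlated above 0.1 (range −0.18 to 0.19). With the replicate block Mgll had −0.89 and an adjusted p of 0.0171. The number of the 9 genes called between ApoeKO_CD and WT_CD was 2 with DESeq2 (Mgll and Plin2), 0 with all 12 libraries, and 0 to 2 with 1 library left out. It was 0 to 1 with 1 library left out between ApoeKO_HFD and WT_CD, and also 0 to 1 between WT_HFD and WT_CD, the 1 in each arising without WT_CD replicate 2. The log2 difference of Abhd5 between WT_HFD and WT_CD changed from 0.33 to −0.0095 with all 12 libraries, where WT_HFD replicate 3 entered. Its counts on the other strand are part of that fit. Of the 35 differences with an unadjusted p of 0.05 or more, 22 took the other sign under at least 1 alternative, the largest of them being 0.35 in size.

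The number of all genes called moved more than the 9 genes did. Between ApoeKO_CD and WT_CD it was 86, against 432 with DESeq2, 475 without a filter, 3 with all 12 libraries, 38 with only those 2 groups fitted, and 37 to 1801 with 1 library left out. Between ApoeKO_HFD and WT_CD it was 26, against 214, 296, 0, 12 and 0 to 1304, and 14 with the replicate block. Between WT_HFD and WT_CD it was 35, against 173, 272, 1, 9 and 4 to 1019, and 19 with the block. For the interaction it was 37, against 90 with DESeq2, 105 without a filter, 8 with all 12 libraries, 72 with voom and 20 to 285 with 1 library left out. For ApoeKO_HFD it was 12 against ApoeKO_CD (20 with DESeq2, 26 without a filter, 23 with voom, 1 with all 12 libraries, 6 to 14 with 1 left out) and 8 against WT_HFD (28, 49, 39, 1 and 4 to 20, and 24 with only those groups fitted). The cause was not tested. Dgat1 had the fewest counts of the 9 genes, 122 to 229 in a library.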
